A study of Mus musculus with 9 samples.

Results

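Rab proteins are small GTPases that mark the membranes of the cell, and the 40 Rab genes described here are those of RAW264.7 cells, a mouse macrophage-like line, with a level of at least 1 FPKM (fragments per kilobase, scaled to the fragments of the library) in at least 3 of 9 libraries. They were found by name, as Rab followed by digits and at most a short suffix, so that interacting proteins such as Rab11fip1 were left out. In the deposited table of 26146 genes, 57 had such a name, 40 passed the minimum and 17 did not, while 11536 genes of any name passed it. Poly(A) RNA was sequenced in 3 libraries of each of 3 groups. All were the same cell line, treated with LPS (lipopolysaccharide, the endotoxin of bacterial outer membranes that Toll-like receptor 4 detects), with LPS plus a Traditional Chinese Medicine extract, or left normal. The labels contradict each other on which treated group is which, so the groups carry the names of their table columns, M, ET and Normal. Read by column, M received LPS with the extract and ET received LPS alone. Read by library name, it is the other way round, and no expression value was used to decide. The comparison of either treated group with Normal asks how LPS, with or without the extract, changed the Rab genes, and that of M with ET asks about the extract. Neither plant, dose nor exposure time is given in the labels used here.

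A Rab protein is switched on when an exchange factor loads it with GTP and switched off when a GTPase-activating protein makes it hydrolyse that GTP. In its active form it holds effectors that tether vesicles, move them along the cytoskeleton or let them fuse, and a lipid tail, attached by a prenyltransferase, anchors it in the membrane until GDP dissociation inhibitors take it back to the cytosol. In macrophages these proteins steer phagosomes through fusion with early and then late endosomes, carry Toll-like receptors to and from the surface, and move newly made cytokines through the Golgi to the plasma membrane. Messenger RNA, which was measured here, does not show how much of a Rab is in its active form.

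Total counts per library lay between 55039858 and 76242718. Principal component 1, with 90.3% of the variance, separated Normal from both treated groups, and on component 2, with 2.2%, ET replicate 3 stood at -7.19, ET replicates 1 and 2 at -14.8 and -18.0 and the M libraries between 11.8 and 14.2. The labels do not say that replicates came from separate cultures, so p-values measure only the spread between these libraries. Of 10 macrophage markers, 9 were expressed, with summed levels of 2428 to 2480 FPKM in M, 2504 to 2683 FPKM in ET and 2037 to 2156 FPKM in Normal. Markers of lymphocytes, fibroblasts, and erythroid cells and platelets summed to at most 1.55 FPKM in any library, and those of epithelial and endothelial cells to at most 3.55 FPKM, most of it Pecam1. Of the granulocyte markers, S100a8 was at 41.3 to 47.5 FPKM in M, 37.7 to 46.9 FPKM in ET and 0 to 0.0668 FPKM in Normal, while Elane and S100a9 never exceeded 0.462 FPKM. What part these marker differences have in the Rab results was not tested. In bulk libraries like these, fewer cells of a kind and less RNA per cell cannot be told apart.

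Treated cells differed from Normal cells in most Rab genes, mostly by small amounts and in both directions. In M over Normal, 17 of 40 members rose, against 35.5% of all 11536 genes tested that rose, and 16 fell, against 34.5% of all genes, with 7 not passing (edgeR quasi-likelihood test, Benjamini-Hochberg adjusted p under 0.05). In ET over Normal, 16 rose, against 35% of all genes, 16 fell, against 35.2%, and 8 did not pass. The share of members that changed was therefore close to that of genes in general, a little above it in both directions. Both treated groups were set against the same Normal libraries, so these counts are not independent of each other. The median log2 fold change of the members was 0.06 for M and 0.03 for ET, beside -0.01 and -0.02 for all genes tested, and the median absolute change was 0.35 for M and 0.26 for ET, beside 0.36 for all genes in both comparisons. With a change of at least 0.58 (log2, 1.5-fold) asked for as well, 4 members rose in M, against 17.5% of all genes, and 4 fell, against 13.4%, and in ET 4 rose, against 17.5%, and 3 fell, against 13.3%. These larger changes were those of Rab15, Rab20, Rab4a and Rab31 upwards and of Rab3a, Rab3d and Rab14 downwards in both groups, with Rab19 downwards in M. Scaling by total counts in place of the TMM factors moved the median of all genes by -0.09 for M and -0.08 for ET and turned the split of members into 13 higher and 18 lower in M and 14 higher and 17 lower in ET. Of all 11536 genes, that scaling gave 3460 higher and 4757 lower in M and 3473 higher and 4770 lower in ET, so genes in general shifted towards falls as well. Rab3a passed the minimum only through the Normal libraries, and Rab15 and Rab4a passed it only with the treated libraries. The other 37 members gave 15 higher and 15 lower in M and 14 higher and 15 lower in ET.

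**Figure D1:**
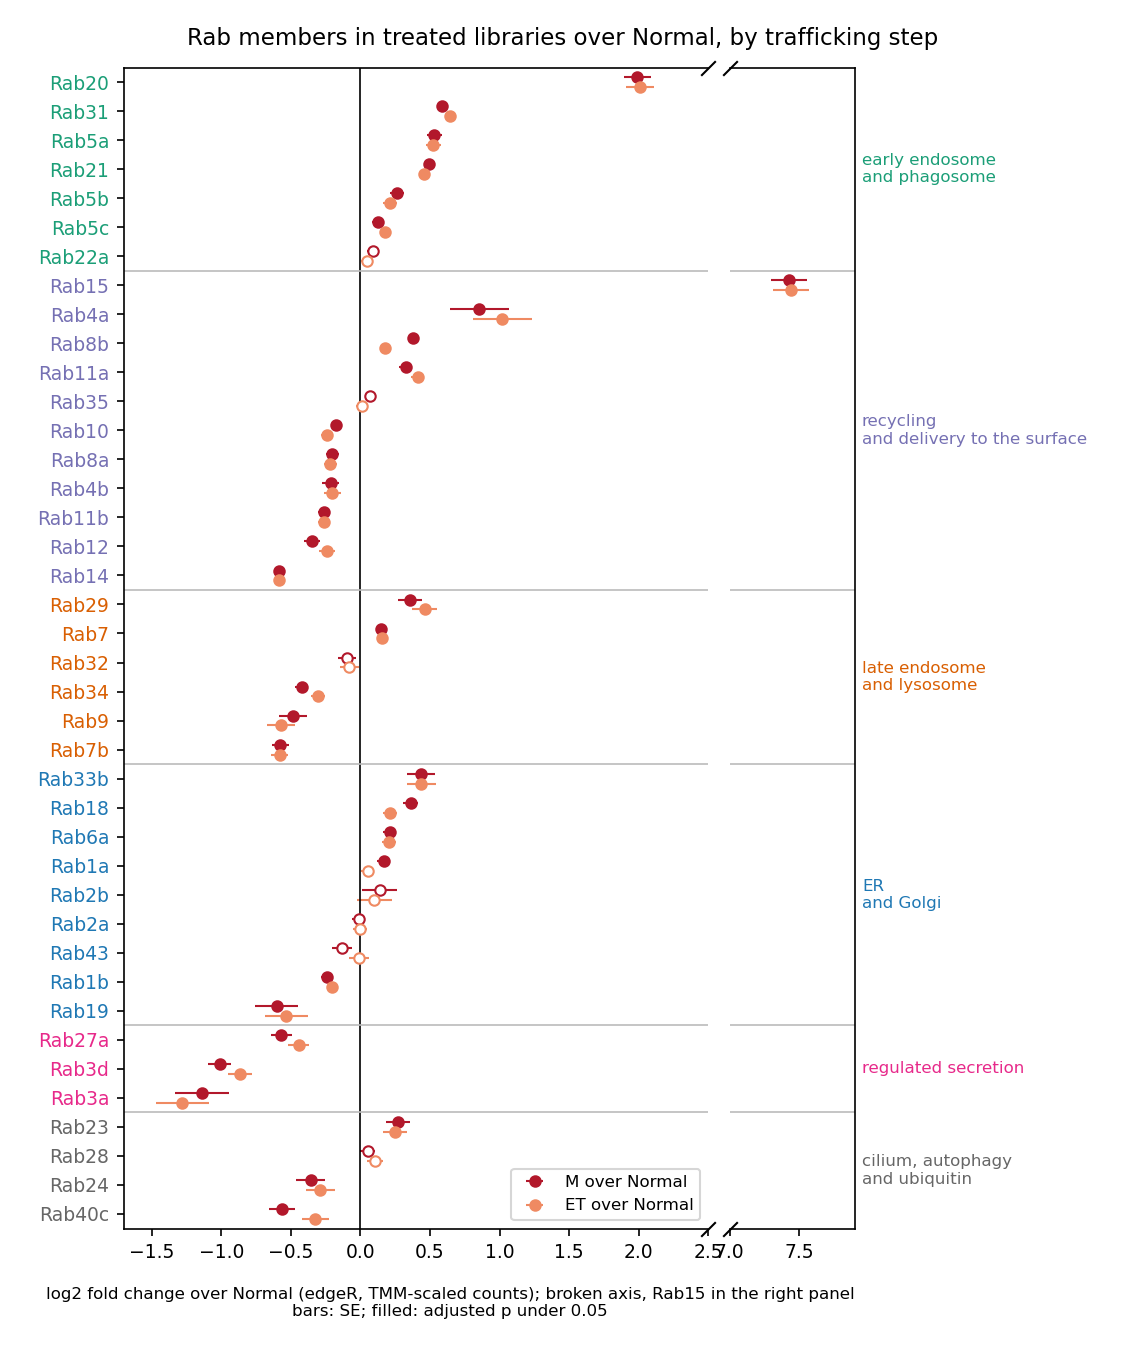
Log2 fold changes of the 40 Rab members for M over Normal (dark red) and ET over Normal (orange), grouped by trafficking step. Points are edgeR estimates, bars their SE, and filled points have an adjusted p under 0.05; the axis is broken, with Rab15 at 7.43 and 7.44 on its right side. Members of early endosomes lie at or right of 0, those of regulated secretion left of it, and the other steps hold both. Steps were assigned with earlier results of these data known.

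The largest change was that of Rab15, which works between early and recycling endosomes (ENSMUSG00000021062, chromosome 12, 76797960 to 76822908, minus strand). Its level was 18.9, 17.9 and 18.3 FPKM in the M libraries, 17.1, 19.1 and 19.9 FPKM in the ET libraries and 0.0694, 0.144 and 0.108 FPKM in the Normal libraries. Rab15 was close to absent from Normal cells and was well expressed in every treated library. The Normal values rest on 22, 56 and 31 counts, and the treated ones on 5108 to 5954 counts per library. The log2 fold change over Normal was 7.43 (SE 0.13, adjusted p = 7.38e-14) for M and 7.44 (SE 0.13, adjusted p = 7.88e-14) for ET, or 172-fold and 174-fold. Rab15 lies whole, over 24949 bases, within the span of Fntb, the farnesyltransferase beta subunit gene on the opposite strand, and the strand setting of the counting is not stated in the labels used here. Fntb averaged 5.504 FPKM in M, 5.82 FPKM in ET and 5.42 FPKM in Normal, with log2 fold changes of 0.11 for M and 0.18 for ET that did not pass the test (adjusted p = 0.238 and 0.0587).

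Members of early endosomes and young phagosomes were mostly higher in the treated groups, with 6 of 7 members higher in M and the same 6 higher in ET, and 0 lower in either, beside 35.5% of all genes higher and 34.5% lower in M and 35% higher and 35.2% lower in ET. Their summed level was 247 ± 1.98 FPKM in M, 255 ± 8.79 FPKM in ET and 200.04 ± 2.09 FPKM in Normal (SD, n = 3 libraries), and all 6 treated libraries lay above the 3 Normal ones. Of that sum, Rab31 gave 79.5 FPKM in M, 83.1 FPKM in ET and 56.2 FPKM in Normal. Rab20 gave 15.9 FPKM in M, 16.3 FPKM in ET and 4.25 FPKM in Normal, so most of the difference rests on Rab31 and Rab20. Steps were assigned with earlier results of these data known, so the count and the sum depend on the grouping. Rab14, which fell, and Rab35, which did not pass, also act at early endosomes or phagosomes but were placed with recycling. Rab20 (ENSMUSG00000031504, chromosome 8, 11453518 to 11478710, minus strand), a Rab of macrophage phagosomes that takes part in their maturation, had 16.8, 16.4 and 14.6 FPKM in the M libraries, 17.4, 17.2 and 14.2 FPKM in the ET libraries and 4.26, 4.16 and 4.34 FPKM in the Normal libraries. The treated libraries overlapped each other and lay far above the Normal ones, which differed little among themselves. Its log2 fold change over Normal was 1.99 (SE 0.10, adjusted p = 1.59e-09) for M and 2.01 (SE 0.10, adjusted p = 1.48e-09) for ET, or 3.97-fold and 4.02-fold. Rab31 (ENSMUSG00000056515, chromosome 17, 65651729 to 65772752, minus strand), which works between the trans-Golgi network and endosomes, was the member of this step with the largest gain in FPKM. Its values were 78.4, 77.9 and 82.2 FPKM in the M libraries, 83.1, 83.5 and 82.7 FPKM in the ET libraries and 55.4, 56.3 and 56.8 FPKM in the Normal libraries. Every treated library exceeded every Normal one, and the ET libraries lay just above the M libraries, a difference that did not pass the test. The log2 fold change over Normal was 0.59 (SE 0.03, adjusted p = 4.16e-09) for M and 0.64 (SE 0.03, adjusted p = 1.79e-09) for ET.

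The Rab5 proteins are the master switches of early endosome fusion, and their 3 genes moved together but unequally. Rab5a had 11.6, 11.2 and 11.04 FPKM in the M libraries, 11.3, 11.98 and 10.6 FPKM in the ET libraries and 8.59, 8.104 and 8.11 FPKM in the Normal libraries. The 2 treated groups overlapped and lay above Normal, with log2 fold changes of 0.53 (SE 0.05, adjusted p = 1.89e-06) for M and 0.52 (SE 0.05, adjusted p = 2.22e-06) for ET. Rab5b had 16.3, 16.7 and 17.2 FPKM in the M libraries, 15.6, 17.4 and 15.9 FPKM in the ET libraries and 15.4, 14.9 and 14.2 FPKM in the Normal libraries. It was also above Normal in all 6 treated libraries, though by less, with log2 fold changes of 0.26 (SE 0.05) for M and 0.21 (SE 0.05) for ET. Rab5c, with Rab7 the highest of all Rab genes in mean FPKM, had 95.8, 98.9 and 98.03 FPKM in the M libraries, 103, 107 and 96.8 FPKM in the ET libraries and 95.8, 92.7 and 96.7 FPKM in the Normal libraries. Its M and Normal libraries overlapped in FPKM, and the rise passed the test on TMM-scaled counts only narrowly in M, with log2 fold changes of 0.12 (SE 0.04, adjusted p = 0.0126) for M and 0.18 (SE 0.04, adjusted p = 0.00132) for ET. Without TMM factors the rise of Rab5c in M was no longer called (log2 fold change 0.03, adjusted p = 0.468), nor was it without Normal replicate 2 (0.11, adjusted p = 0.0513). Rab21, which sorts integrins on early endosomes, had 19.6, 18.3 and 19.1 FPKM in the M libraries, 18.4, 19.1 and 18.5 FPKM in the ET libraries and 14.2, 14.4 and 14.3 FPKM in the Normal libraries. The treated libraries stood clear of Normal and overlapped each other, with log2 fold changes of 0.49 (SE 0.04) for M and 0.46 (SE 0.04) for ET. Rab22a, a regulator of early endosomes and phagosomes, was the exception, with 7.06, 7.197 and 7.21 FPKM in the M libraries, 6.97, 7.096 and 6.92 FPKM in the ET libraries and 6.99, 7.17 and 7.29 FPKM in the Normal libraries. All 9 libraries of Rab22a lay within a narrow band, and its log2 fold changes of 0.09 (SE 0.04, adjusted p = 0.0875) for M and 0.04 (SE 0.04, adjusted p = 0.373) for ET did not pass.

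The promoters of the members were searched for short motifs, and some are printed below. RefSeq windows (GRCm38.p6) of 250 bases before to 50 after each annotated start were found for 36 of 40 members, in 47 windows. The E-box CACGTG, its longer form TCACGTGA (which contains it), the cyclic AMP response element TGACGTCA, the AP-1 site TGANTCA, the kappa-B site GGGANTTCC and the interferon response element GAAANNGAA were searched on both strands. The motifs were chosen with the earlier results known, and the windows to print after the matches were seen. Those printed are the windows of early endosome members that held the E-box. Rab31, Rab5b and Rab5c also rose in M and in ET, but their windows held none of these motifs and are not printed. Capitals mark the E-box, its longer form and the cyclic AMP response element in the windows of Rab20 (chr8:11478591-11478890, minus strand), Rab5a (chr17:53478984-53479283, plus strand) and Rab21 (chr10:115315542-115315841, minus strand), each written 5′ to 3′ along the gene.
Rab20: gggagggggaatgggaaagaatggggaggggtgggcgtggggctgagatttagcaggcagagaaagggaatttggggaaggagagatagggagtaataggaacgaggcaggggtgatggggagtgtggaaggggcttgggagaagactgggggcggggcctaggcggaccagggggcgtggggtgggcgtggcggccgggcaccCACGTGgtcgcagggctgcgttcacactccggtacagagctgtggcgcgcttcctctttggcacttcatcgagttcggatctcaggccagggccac
Rab5a: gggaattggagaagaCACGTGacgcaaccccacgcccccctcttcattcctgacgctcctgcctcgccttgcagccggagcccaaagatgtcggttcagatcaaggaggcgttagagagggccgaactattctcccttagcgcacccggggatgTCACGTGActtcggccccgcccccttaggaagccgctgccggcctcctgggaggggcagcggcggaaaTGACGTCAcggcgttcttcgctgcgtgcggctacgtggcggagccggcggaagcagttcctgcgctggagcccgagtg
Rab21: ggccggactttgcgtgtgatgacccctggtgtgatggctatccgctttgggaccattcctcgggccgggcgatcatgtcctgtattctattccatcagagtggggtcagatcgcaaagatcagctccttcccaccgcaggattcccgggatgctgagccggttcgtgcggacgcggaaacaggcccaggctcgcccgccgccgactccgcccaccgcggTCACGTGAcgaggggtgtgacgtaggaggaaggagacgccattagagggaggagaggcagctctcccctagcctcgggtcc

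Counting the annotated start as 0 and the bases before it as negative, the E-box letters began at -46 in Rab20, at -235 and -95 in Rab5a and at -30 in Rab21. Rab5a and Rab21 held the longer form, and Rab5a also held the cyclic AMP response element, beginning at -28. The E-box was present in 3 of 7 windows of early endosome members and in 6 of 47 Rab windows (12.8%), beside 7.15% of 32851 windows of all genes. Rab23, Rab24 and Rab27a were the other members with it, 1 of them higher and 2 lower in both treated groups. The longer form was in 3 Rab windows and 0.974% of all windows, and the cyclic AMP response element in 1 Rab window and 1.79% of all. The AP-1 letters were in windows of Rab15 and Rab34 and in 7.81% of all windows, the interferon response element letters in those of Rab19 and Rab20 and in 8.56% of all, and the kappa-B letters in 0 Rab windows and 1.68% of all. A match states only that the letters are there.

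**Figure D2:**
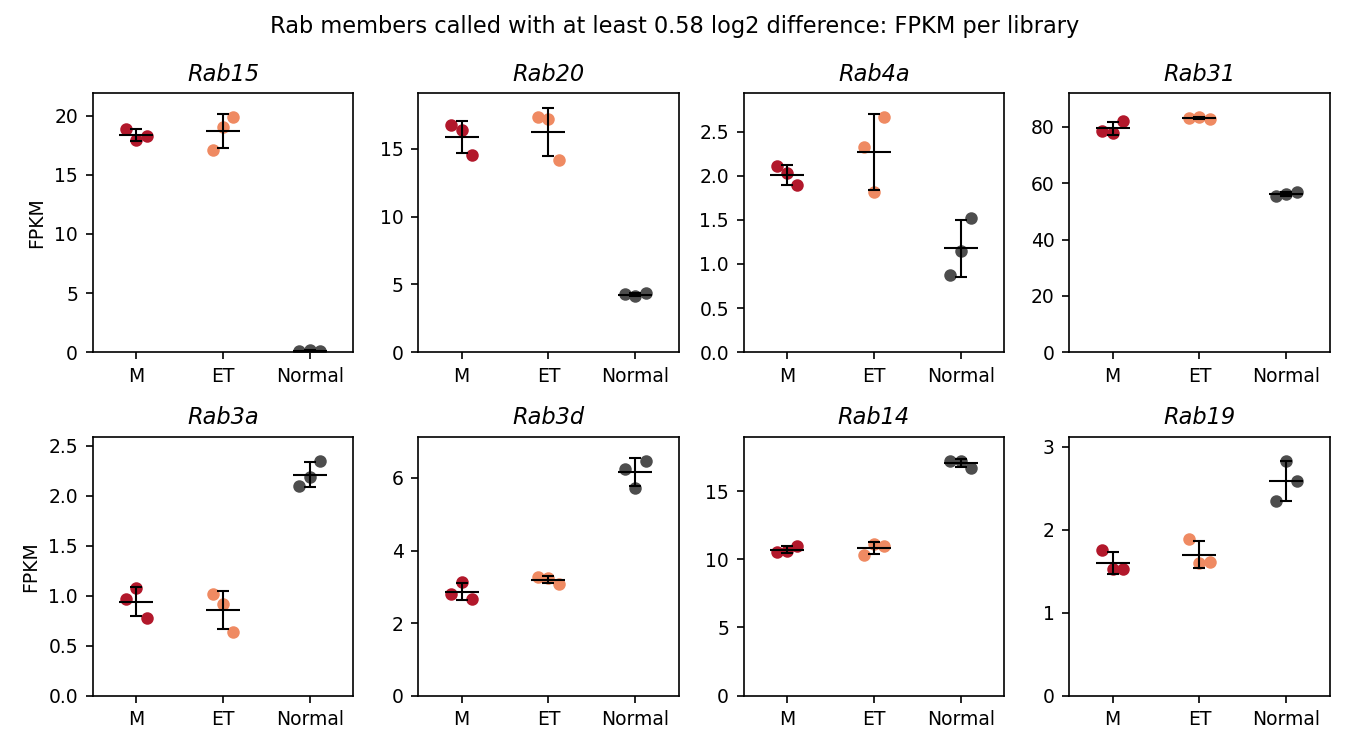
FPKM per library of the 8 Rab members that changed by at least 0.58 on the log2 scale in at least 1 treated group. Points are libraries, horizontal lines means and bars SD of 3 libraries, on axes that start at 0; Rab15, Rab20, Rab4a and Rab31 are higher and Rab3a, Rab3d, Rab14 and Rab19 lower in every treated library than in every Normal one.

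Recycling and delivery to the cell surface held 11 members, and they split, with 4 higher and 6 lower in M and 4 higher and 6 lower in ET. Over all genes tested, 35.5% were higher and 34.5% lower in M and 35% and 35.2% in ET, so the 4 of 11 that rose were near the general share. Rab15 and Rab4a, which passed the FPKM minimum only with the treated libraries, were 2 of those 4. The summed level of the 11 was 212 ± 1.56 FPKM in M, 207 ± 2.67 FPKM in ET and 209.6 ± 1.398 FPKM in Normal (SD, n = 3). Rab15 alone gave 18.4 FPKM of that sum in M, 18.7 FPKM in ET and 0.107 FPKM in Normal. The near-equal sums therefore rest on Rab15, and also on the scale, since FPKM are not TMM-scaled. Besides Rab15, the members that rose were Rab4a, Rab8b and Rab11a. Rab4a, which returns receptors quickly from early endosomes, was a low-level gene with 2.11, 2.03 and 1.89 FPKM in the M libraries, 2.32, 1.82 and 2.66 FPKM in the ET libraries and 0.874, 1.14 and 1.52 FPKM in the Normal libraries. Its Normal libraries spread widely, yet the highest of them lay below the lowest treated one. Its log2 fold change over Normal was 0.85 (SE 0.21, adjusted p = 0.00293) for M and 1.02 (SE 0.21, adjusted p = 0.000819) for ET. Rab11a, the Rab of the slower recycling compartment, had 19.5, 19.9 and 19.01 FPKM in the M libraries, 19.8, 21.7 and 21.1 FPKM in the ET libraries and 16.6, 16.6 and 16.3 FPKM in the Normal libraries. The Normal libraries lay close together below all treated ones, with log2 fold changes of 0.32 (SE 0.05) for M and 0.41 (SE 0.05) for ET. Rab8b, which carries vesicles to the plasma membrane, had 41.5, 39.6 and 40.8 FPKM in the M libraries, 35.1, 35.2 and 36.6 FPKM in the ET libraries and 33.4, 32.4 and 33.8 FPKM in the Normal libraries. All 3 groups stood apart in Rab8b, with M highest and Normal lowest, and the log2 fold changes over Normal were 0.38 (SE 0.04) for M and 0.18 (SE 0.04) for ET.

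Among the recycling members that fell, Rab14, which moves cargo between the Golgi and early endosomes and is found on phagosomes, changed the most (ENSMUSG00000026878, chromosome 2, 35180205 to 35201120, minus strand). Rab14 had 10.5, 10.6 and 10.99 FPKM in the M libraries, 10.3, 11.1 and 10.97 FPKM in the ET libraries and 17.2, 17.2 and 16.7 FPKM in the Normal libraries. The treated libraries overlapped each other and stood well below the Normal ones. Its log2 fold change over Normal was -0.58 (SE 0.04, adjusted p = 2.17e-08) for M and -0.58 (SE 0.04, adjusted p = 2.29e-08) for ET. Rab10, known for carrying Toll-like receptor 4 to the macrophage surface, had 32.6, 34.01 and 35.8 FPKM in the M libraries, 33.03, 33.3 and 32.1 FPKM in the ET libraries and 39.8, 41.6 and 41.3 FPKM in the Normal libraries. Every treated library lay below every Normal one, with log2 fold changes of -0.17 (SE 0.04) for M and -0.24 (SE 0.04) for ET. Rab8a, the close relative of Rab8b, had 16.3, 18.2 and 16.9 FPKM in the M libraries, 17.3, 17.4 and 16.6 FPKM in the ET libraries and 21.1, 20.3 and 21.5 FPKM in the Normal libraries. It too was lower in all treated libraries, with log2 fold changes of -0.20 (SE 0.05) for M and -0.22 (SE 0.05) for ET. Rab4b, Rab11b and Rab12 made up the rest of the falls, with log2 fold changes between -0.35 (Rab12 in M) and -0.20 (Rab4b in ET). Rab4b, a relative of Rab4a, lay at 12.98 to 13.7 FPKM in M, 13.2 to 14.01 FPKM in ET and 15.5 to 17.03 FPKM in Normal. Rab11b, the relative of Rab11a, lay at 10.5 to 11.3 FPKM in M, 10.8 to 11.2 FPKM in ET and 13.6 to 14.2 FPKM in Normal. Rab12, placed with this step though it directs transferrin receptor to degradation, lay at 11.1 to 12.2 FPKM in M, 12.05 to 12.9 FPKM in ET and 15.6 to 15.8 FPKM in Normal. None of these treated ranges reached the Normal one. Rab35, which recycles cargo from early endosomes and acts in phagosome formation, had 31.8, 34.7 and 33.7 FPKM in the M libraries, 32.8, 32.9 and 31 FPKM in the ET libraries and 33.1, 33.7 and 34.4 FPKM in the Normal libraries. M overlapped Normal, ET lay just below it in FPKM, and its log2 fold changes of 0.07 (SE 0.04, adjusted p = 0.1403) for M and 0.01 (SE 0.04, adjusted p = 0.851) for ET did not pass.

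At the late endosome and lysosome, 2 members rose in both treated groups, 3 fell in both and 1 passed in neither, beside 35.5% of all genes higher and 34.5% lower in M and 35% and 35.2% in ET. Rab7, the Rab of late endosome and phagosome fusion with lysosomes, had 96.2, 102 and 97.99 FPKM in the M libraries, 105, 97.4 and 99.1 FPKM in the ET libraries and 94.1, 94.4 and 95.96 FPKM in the Normal libraries. It was high in Normal cells already and rose slightly, with log2 fold changes of 0.15 (SE 0.04, adjusted p = 0.00428) for M and 0.16 (SE 0.04, adjusted p = 0.00259) for ET. Without TMM factors the rise was not called in either group (log2 fold change 0.05 for M and 0.08 for ET, adjusted p = 0.215 and 0.0756). A pseudogene, Rab7-ps1, was listed at up to 8.13 FPKM, so reads of Rab7 may be split with it. Rab29, a partner of the kinase LRRK2, was the other member that rose, with log2 fold changes of 0.36 (SE 0.09) for M and 0.46 (SE 0.09) for ET and levels of 9.13 to 10.3 FPKM in M, 9.75 to 11.1 FPKM in ET and 7.87 to 8.25 FPKM in Normal. Rab7b, reported to limit Toll-like receptor 4 signalling in macrophages, had 7.31, 7.39 and 7.18 FPKM in the M libraries, 7.4, 7.02 and 7.56 FPKM in the ET libraries and 12.3, 11.3 and 10.98 FPKM in the Normal libraries. The treated libraries formed a tight band below Normal, with log2 fold changes of -0.58 (SE 0.06, adjusted p = 2.47e-06) for M and -0.58 (SE 0.06, adjusted p = 2.31e-06) for ET. Rab9, which returns mannose 6-phosphate receptors from late endosomes to the Golgi, had 7.05, 9.13 and 8.14 FPKM in the M libraries, 8.41, 7.15 and 7.56 FPKM in the ET libraries and 11.8, 11.99 and 12.4 FPKM in the Normal libraries. All 6 treated libraries lay below the Normal ones, with log2 fold changes of -0.48 (SE 0.10) for M and -0.57 (SE 0.10) for ET. Rab34, which acts in macropinocytosis and phagosome maturation, had 16.7, 15.98 and 16.95 FPKM in the M libraries, 18.4, 17.9 and 18.1 FPKM in the ET libraries and 23.2, 23.2 and 24.3 FPKM in the Normal libraries. M was lowest, ET intermediate and Normal highest with no overlap, though the difference between M and ET did not pass the test, and the log2 fold changes over Normal were -0.42 (SE 0.05) for M and -0.30 (SE 0.05) for ET. Rab32, a Rab of lysosome-related organelles and phagosomes, had 7.83, 7.75 and 7.96 FPKM in the M libraries, 8.14, 7.64 and 8.21 FPKM in the ET libraries and 9.05, 8.67 and 9.01 FPKM in the Normal libraries. Its FPKM was lower in every treated library, but on TMM-scaled counts the log2 fold changes of -0.10 (SE 0.07, adjusted p = 0.216) for M and -0.08 (SE 0.07, adjusted p = 0.3) for ET did not pass. With total counts as the scale it was called lower in both groups.

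At the endoplasmic reticulum and Golgi, 4 of 9 members were higher and 2 lower in M, and 3 were higher and 2 lower in ET. These counts lay near the shares over all genes, 35.5% higher and 34.5% lower in M and 35% and 35.2% in ET, for rises, and under them for falls. The summed level of the 9 was 214 ± 4.23 FPKM in M, 213 ± 1.06 FPKM in ET and 229 ± 4.62 FPKM in Normal (SD, n = 3), with all treated libraries below the Normal ones. That order rests on the scale, since FPKM are not TMM-scaled. On TMM-scaled counts the median log2 fold change of the 9 was 0.14 for M and 0.05 for ET. Rab1a, which moves vesicles from the endoplasmic reticulum to the Golgi, had 56.5, 57.3 and 52.9 FPKM in the M libraries, 49.4, 51.7 and 54.02 FPKM in the ET libraries and 54.5, 51.2 and 52.1 FPKM in the Normal libraries. The groups overlapped in FPKM, and on TMM-scaled counts it passed in M but not in ET, with log2 fold changes of 0.17 (SE 0.05, adjusted p = 0.00615) for M and 0.05 (SE 0.05, adjusted p = 0.334) for ET. The call in M did not hold without TMM factors (0.07, adjusted p = 0.153). Rab1b, with the same task, had 71.7, 74.9 and 72.3 FPKM in the M libraries, 77.2, 78.5 and 71.3 FPKM in the ET libraries and 90.2, 89.6 and 95.1 FPKM in the Normal libraries. It was lower in every treated library, with log2 fold changes of -0.24 (SE 0.04) for M and -0.20 (SE 0.04) for ET. Rab6a, which acts in and out of the Golgi, had 20.8, 20.9 and 22.7 FPKM in the M libraries, 20.97, 21.01 and 22.8 FPKM in the ET libraries and 20.04, 19.3 and 19.8 FPKM in the Normal libraries. All treated libraries exceeded the Normal ones by a small margin, with log2 fold changes of 0.21 (SE 0.05) for M and 0.21 (SE 0.05) for ET. Rab2a, which works in Golgi traffic, had 36.6, 38.8 and 37.6 FPKM in the M libraries, 38.4, 36.3 and 39.8 FPKM in the ET libraries and 41.98, 38.9 and 40.1 FPKM in the Normal libraries. The M libraries lay just below Normal in FPKM, but on TMM-scaled counts the log2 fold changes of -0.01 (SE 0.05, adjusted p = 0.848) for M and -0.003 (SE 0.05, adjusted p = 0.958) for ET did not pass. Rab19, a Golgi Rab, was a low-level gene with 1.76, 1.52 and 1.53 FPKM in the M libraries, 1.88, 1.595 and 1.61 FPKM in the ET libraries and 2.35, 2.83 and 2.59 FPKM in the Normal libraries. Treated and Normal libraries did not overlap, and the log2 fold changes were -0.60 (SE 0.15, adjusted p = 0.00381) for M and -0.53 (SE 0.15, adjusted p = 0.008003) for ET. Rab33b, which joins Golgi traffic to autophagy, rose by 0.43 in M and 0.44 in ET, and Rab18, a Rab of lipid droplets and the endoplasmic reticulum, by 0.36 in M and 0.21 in ET (log2). Rab33b ranged over 4.71 to 5.97 FPKM in M, 5.05 to 6.01 FPKM in ET and 4.12 to 4.59 FPKM in Normal, and Rab18 over 11.97 to 13.6 FPKM in M, 10.97 to 11.8 FPKM in ET and 10.1 to 10.5 FPKM in Normal, with treated and Normal ranges apart in both. Rab2b, the lesser partner of Rab2a, at 1.74 to 2.16 FPKM in M, 1.76 to 2.06 FPKM in ET and 1.75 to 1.99 FPKM in Normal, and Rab43, another Golgi Rab, at 4.84 to 5.23 FPKM in M, 5.17 to 5.96 FPKM in ET and 5.43 to 6.102 FPKM in Normal, passed in neither comparison.

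Of the 3 members of regulated secretion, 3 fell in M and in ET, beside 34.5% of all genes in M and 35.2% in ET. Rab3a passed the FPKM minimum only through the Normal libraries, where it was high, which leaves Rab3d and Rab27a as 2 of 2 that fell. The summed level of the 3 was 7.197 ± 0.4202 FPKM in M, 7.79 ± 0.1498 FPKM in ET and 13.7 ± 0.529 FPKM in Normal (SD, n = 3), and no treated library reached the lowest Normal one. That sum includes Rab3a, with means of 0.941 FPKM in M, 0.857 FPKM in ET and 2.21 FPKM in Normal. The minimum favoured this part of the difference, so the sum adds no support beyond Rab3d and Rab27a. Rab3d (ENSMUSG00000019066, chromosome 9, 21907491 to 21918192, minus strand), a Rab of secretory granules, had 2.799, 3.14 and 2.67 FPKM in the M libraries, 3.26, 3.26 and 3.08 FPKM in the ET libraries and 6.25, 5.74 and 6.48 FPKM in the Normal libraries. Its Normal libraries all lay far above the treated ones, which overlapped. Its log2 fold change over Normal was -1.01 (SE 0.08, adjusted p = 2.83e-07) for M and -0.87 (SE 0.08, adjusted p = 1.2e-06) for ET. Rab3a (ENSMUSG00000031840, chromosome 8, 70754679 to 70758677, plus strand), known from neurotransmitter release and lysosome exocytosis, had 0.969, 1.07 and 0.781 FPKM in the M libraries, 1.01, 0.916 and 0.642 FPKM in the ET libraries and 2.102, 2.18 and 2.35 FPKM in the Normal libraries. The treated libraries overlapped each other and lay below all Normal ones. Its log2 fold change was -1.14 (SE 0.19, adjusted p = 0.0001703) for M and -1.28 (SE 0.19, adjusted p = 6.58e-05) for ET. Rab3a shares 29 bases with Mpv17l2 on the opposite strand, a gene whose mean count was 719% of that of Rab3a and which did not pass the test in either group. Rab27a, which docks secretory lysosomes and exosome-bearing vesicles at the plasma membrane, had 3.28, 3.46 and 3.42 FPKM in the M libraries, 3.51, 3.77 and 3.92 FPKM in the ET libraries and 5.49, 5.21 and 5.33 FPKM in the Normal libraries. M was lowest, ET intermediate and Normal highest with no overlap, though the difference between M and ET did not pass the test, and the log2 fold changes over Normal were -0.57 (SE 0.08, adjusted p = 2.19e-05) for M and -0.44 (SE 0.08, adjusted p = 0.000189) for ET.

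Of the 4 members placed with the cilium, autophagy and ubiquitin, 1 rose and 2 fell in each treated group, beside the 35.5% and 34.5% of all genes in M and 35% and 35.2% in ET. Rab24, linked to autophagy, had 4.84, 4.78 and 4.55 FPKM in the M libraries, 4.43, 5.24 and 5.33 FPKM in the ET libraries and 5.91, 6.77 and 6.63 FPKM in the Normal libraries. The treated libraries lay below the Normal ones, with log2 fold changes of -0.36 (SE 0.10, adjusted p = 0.00806) for M and -0.29 (SE 0.10, adjusted p = 0.0251) for ET. Over 1447 bases Rab24 overlaps Prelid1 on the opposite strand, whose mean count was 2798% of that of Rab24 and which rose, with log2 fold changes of 0.21 for M and 0.21 for ET. The fall of Rab24 in ET was no longer called without ET replicate 1 (-0.20, adjusted p = 0.121), Normal replicate 2 (-0.24, adjusted p = 0.0901) or Normal replicate 3 (-0.26, adjusted p = 0.0767). Rab40c, part of a ubiquitin ligase, had 6.53 to 8.18 FPKM in M, 7.704 to 9.97 FPKM in ET and 11.4 to 11.8 FPKM in Normal. It fell by 0.56 in M and 0.32 in ET (log2). Rab23, known from cilia and Hedgehog signalling, had 2.37 to 2.68 FPKM in M, 2.18 to 2.62 FPKM in ET and 2.11 to 2.23 FPKM in Normal. It rose by 0.27 in M (adjusted p = 0.0128) and 0.25 in ET (adjusted p = 0.0189), calls that did not hold without TMM factors (adjusted p = 0.0821 and 0.0902). Rab28, a Rab of cilia in photoreceptors and other cells, lay at 9.34 to 9.74 FPKM in M, 9.399 to 10.6 FPKM in ET and 9.78 to 9.86 FPKM in Normal and passed in neither group.

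**Figure D3:**
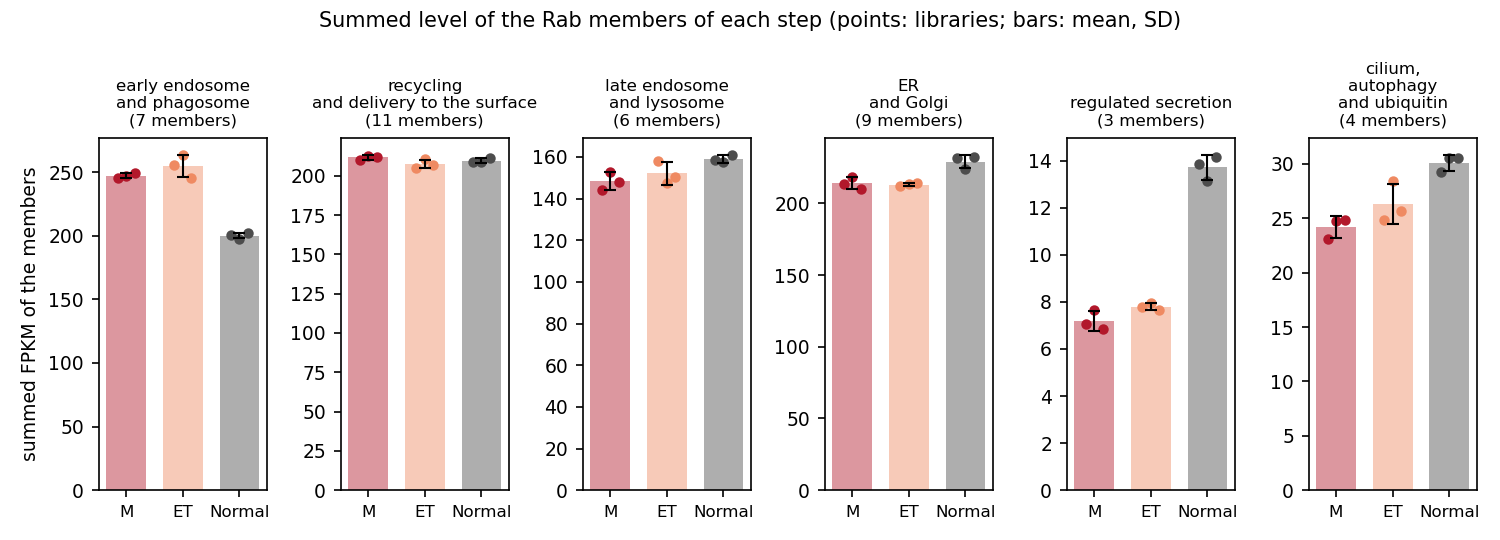
Summed FPKM of the Rab members of each trafficking step in M, ET and Normal, each panel on its own axis from 0. Bars are means and error bars SD of 3 libraries, points are libraries. Early endosome members sum to 247 ± 1.98 FPKM in M, 255 ± 8.79 in ET and 200.04 ± 2.09 in Normal, a difference that is mostly that of Rab31 and Rab20. Secretory members sum to 7.197 ± 0.4202 FPKM in M, 7.79 ± 0.1498 in ET and 13.7 ± 0.529 in Normal. The secretory sum includes Rab3a, which passed the FPKM minimum only through the Normal libraries.

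Several close relatives moved in opposite directions. The log2 ratio of 2 relatives within a library does not depend on library scaling, and it was computed for 10 pairs chosen as the same-numbered members. Rab4a over Rab4b gave -2.70, -2.68 and -2.81 in M, -2.51, -2.95 and -2.32 in ET and -4.29, -3.86 and -3.35 in Normal. Rab4a thus made up 13.1% ± 0.5403 in M, 14.4% ± 2.66 in ET and 6.75% ± 2.04 in Normal (SD, n = 3) of the FPKM of the pair. The treated libraries of both groups lay above all Normal ones. For Rab11a over Rab11b the ratio was 0.85, 0.82 and 0.85 in M, 0.83, 0.99 and 0.97 in ET and 0.27, 0.29 and 0.20 in Normal. Rab11a supplied 64.2% ± 0.294 in M, 65.5% ± 1.36 in ET and 54.4% ± 0.767 in Normal (SD, n = 3) of its pair's FPKM. A pseudogene, Rab11b-ps2, was listed at 8.25 to 10.8 FPKM, near the level of Rab11b itself. In counts it was smaller, with a mean of 411 per library beside 4800 for Rab11b. Reads of Rab11b may be split with it, which was not tested. Rab8b over Rab8a stood at 1.35, 1.12 and 1.27 in M, 1.02, 1.01 and 1.14 in ET and 0.66, 0.67 and 0.66 in Normal. Rab8b supplied 70.3% ± 1.7 in M, 67.5% ± 1.09 in ET and 61.3% ± 0.119 in Normal (SD, n = 3) of its pair's FPKM. Again every treated library exceeded every Normal one. Rab7 over Rab7b was 3.72, 3.79 and 3.77 in M, 3.82, 3.79 and 3.71 in ET and 2.94, 3.06 and 3.13 in Normal, and Rab1a over Rab1b was -0.35, -0.39 and -0.45 in M, -0.64, -0.60 and -0.40 in ET and -0.73, -0.81 and -0.87 in Normal. In the pair of Rab1a and Rab1b, Rab1b stayed the more abundant in all 9 libraries. Other pairs went down: the mean ratio less that of Normal was -0.14 in M and -0.10 in ET for Rab2a over Rab2b. For Rab3a over Rab3d it was -0.14 in M and -0.45 in ET. For Rab5b over Rab5c it was 0.14 in M and 0.03 in ET, where libraries overlapped. The direction of a ratio depends on which gene is put first, and Rab8b was put before Rab8a. Libraries did not overlap in 9 of 10 pairs between M and Normal, in 8 between ET and Normal and in 2 between M and ET. The share among other gene pairs was not computed, so these counts are not read as a trait of Rab pairs. Over all genes tested, 35.5% were higher and 34.5% lower in M and 35% and 35.2% in ET. Those are shares of single genes by another measure and give no background for ratios. The Rab5 pairs share members. Rab3a passed the FPKM minimum only through the Normal libraries and Rab4a only with the treated ones. With 3 libraries against 3 the exact permutation test (two-sided) can give no p below 0.1, which 19 of 30 tests reached (0.158 after Benjamini-Hochberg adjustment over 30), so no ratio could pass a threshold of 0.05.

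**Figure D4:**
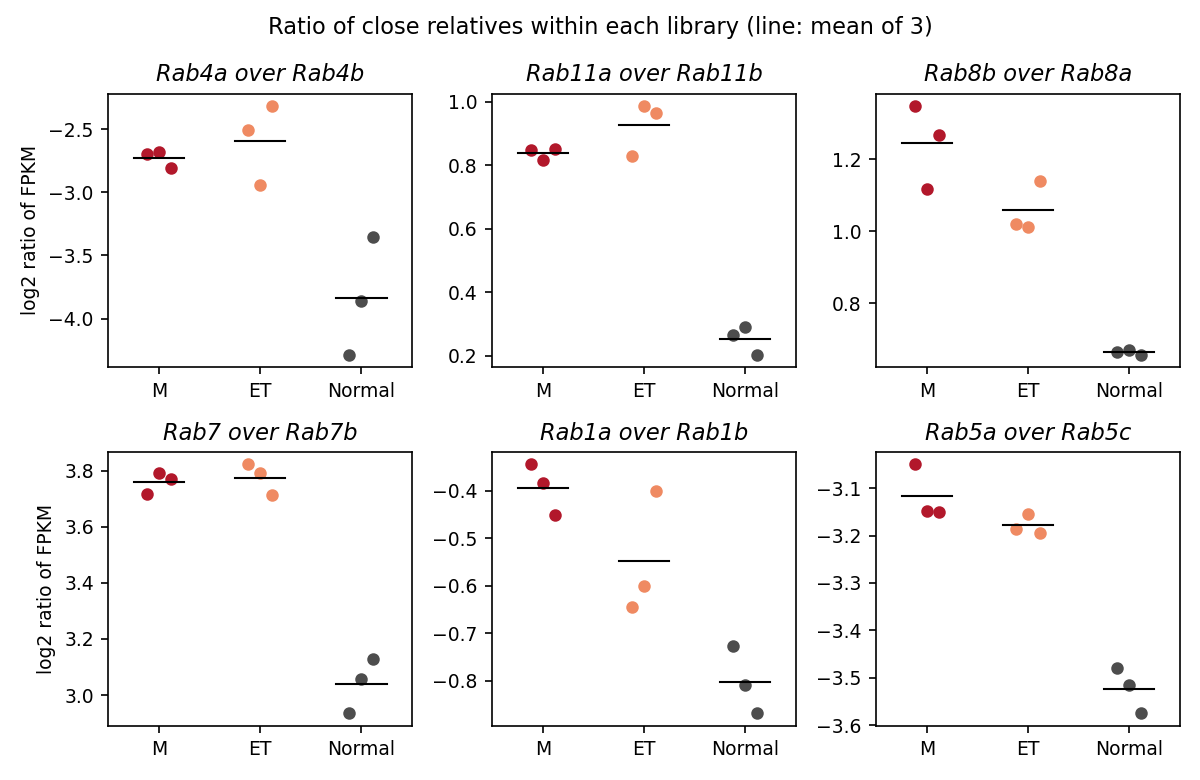
Log2 ratio of FPKM of 6 pairs of close relatives within each library, in M, ET and Normal. Points are libraries and lines means of 3, and the vertical axes differ and do not start at 0. In each pair shown every treated ratio lies above every Normal one. The 6 were picked from 10 pairs, with Rab8b put before Rab8a. Rab2a over Rab2b and Rab3a over Rab3d, not shown, were lower on average in both treated groups than in Normal.

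Between M and ET, the differences of the Rab genes were small and 1 passed the test. Of 40 members, 1 was higher in M, against 4.97% of all genes, and 0 were lower, against 4.12% (573 and 475 genes, edgeR quasi-likelihood test). At an unadjusted p under 0.05 from that test, 3 members were higher and 2 lower. Of all 11536 genes tested, 1635 were higher and 1300 lower at that p, larger shares than among the members. DESeq2 and limma gave the same 1 and 0 for the members. The counts over all genes moved with single libraries. They were 1121 higher and 707 lower without ET replicate 3, and at most 368 higher and between 244 and 313 lower without ET replicate 1 or 2 or M replicate 1, 2 or 3. The member that passed was Rab8b, at 41.5, 39.6 and 40.8 FPKM in M and 35.1, 35.2 and 36.6 FPKM in ET. The lowest M library exceeded the highest ET one. Its log2 fold change of M over ET was 0.20 (SE 0.04, adjusted p = 0.00599), a 1.15-fold difference. Rab18 (0.15, adjusted p = 0.103) and Rab1a (0.12, adjusted p = 0.143) were the other members with an unadjusted p under 0.05 and a higher level in M. On the lower side were Rab40c (-0.24, adjusted p = 0.141) and Rab34 (-0.12, adjusted p = 0.152). Without ET replicate 3, the library nearest to M, Rab40c was called lower in M (-0.33, adjusted p = 0.0262). The median absolute log2 difference between M and ET was 0.05 for the members and 0.10 for all genes tested. Under the other reading of the labels these values keep their size and describe LPS alone over LPS with the extract.

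**Figure D5:**
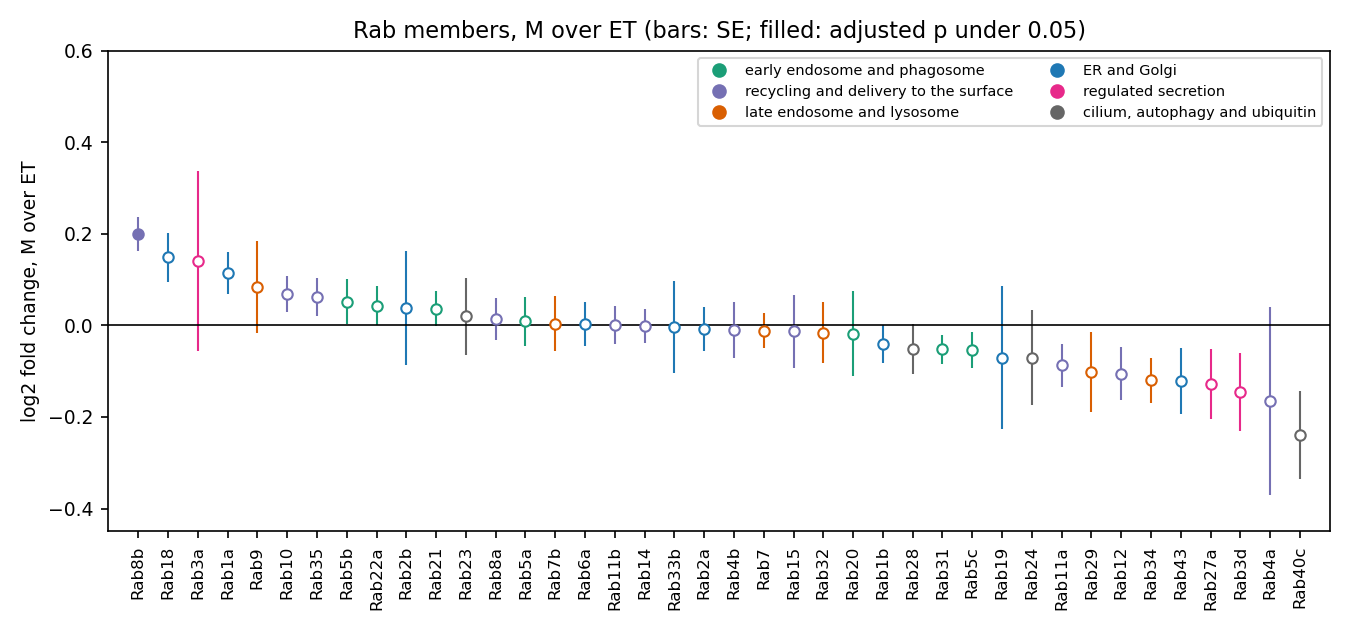
Log2 fold change of M over ET for the 40 Rab members in order of size, coloured by trafficking step. Bars are SE and filled points have an adjusted p under 0.05; Rab8b at 0.20 is the one filled point, and the others lie between -0.24 and 0.15.

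The genes that load, unload and read the Rab proteins were described from lists of 8 to 50 genes. All 8 genes of prenylation and recycling were tested, and 5 rose and 2 fell in M, 3 rose and 2 fell in ET. Over all genes tested, 35.5% rose and 34.5% fell in M, and 35% rose and 35.2% fell in ET. Gdi2, a GDP dissociation inhibitor, averaged 36.05 ± 1.57 FPKM in M, 34.4 ± 1.13 FPKM in ET and 48.9 ± 0.199 FPKM in Normal (SD, n = 3). It fell in both groups, with log2 fold changes of -0.35 (SE 0.04) for M and -0.43 (SE 0.04) for ET. Chml, an escort protein of the prenyltransferase, fell by 1.17 in M and 1.46 in ET (log2). Of 34 exchange factors 30 were tested, and 9 rose and 11 fell in M and likewise 9 and 11 in ET, near those shares. Rab3il1, which activates Rab3 and Rab8 proteins, averaged 4.95 ± 0.428 FPKM in M, 6.26 ± 0.4203 FPKM in ET and 18.98 ± 0.827 FPKM in Normal. It fell in both groups, with log2 fold changes of -1.85 (SE 0.07) for M and -1.52 (SE 0.07) for ET, and was lower in M than in ET, with a log2 fold change of -0.33 (SE 0.07, adjusted p = 0.0107). Rin2, which activates Rab5, had log2 fold changes of -1.28 (SE 0.06) for M and -1.35 (SE 0.06) for ET. Dennd4a, a DENN-domain exchange factor, was higher in M than in ET by 0.24 (SE 0.06, adjusted p = 0.0304).

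Of 38 GTPase-activating proteins 32 were tested, and 13 rose and 12 fell in M and 8 rose and 8 fell in ET, beside 35.5% of all genes that rose and 34.5% that fell in M, and 35% and 35.2% in ET. The 3 named from the comparison with Normal fell. Tbc1d16 averaged 9.81 ± 0.285 FPKM in M, 11.3 ± 0.234 FPKM in ET and 26.1 ± 0.741 FPKM in Normal (SD, n = 3). Tbc1d4, known as AS160 and acting on Rab10 and its relatives, had log2 fold changes of -0.91 (SE 0.07) for M and -1.20 (SE 0.07) for ET. Those of Tbc1d31, a TBC-domain protein of centriolar satellites, were -1.01 (SE 0.10) for M and -0.90 (SE 0.10) for ET. Between M and ET, 2 genes of the list were higher and 5 lower in M, beside 4.97% and 4.12% of all genes, among them Tbc1d17 with 0.38 (SE 0.07) and Tbc1d9b with -0.28 (SE 0.05). Of 50 effectors 35 were tested, and 20 rose and 9 fell in M and 19 rose and 9 fell in ET, beside the same shares of all genes. Their median log2 fold change was 0.30 for M and 0.15 for ET. Lrrk2, a kinase that phosphorylates Rab8 and Rab10 proteins and binds Rab29, averaged 10.5 ± 0.105 FPKM in M, 6.25 ± 0.8397 FPKM in ET and 1.29 ± 0.111 FPKM in Normal. All 3 groups stood apart, with log2 fold changes over Normal of 3.11 (SE 0.09) for M and 2.35 (SE 0.09) for ET, and of 0.76 (SE 0.08, adjusted p = 0.000123) for M over ET. Micall2, an effector of Rab8 and Rab13 proteins, averaged 14.3 ± 0.1796 FPKM in M, 15.7 ± 0.7704 FPKM in ET and 2.05 ± 0.378 FPKM in Normal. Rilpl2, which binds Rab proteins phosphorylated by Lrrk2, averaged 41.7 ± 0.557 FPKM in M, 38 ± 1.58 FPKM in ET and 14.2 ± 0.556 FPKM in Normal. Rab11fip1, an effector of Rab11, had log2 fold changes over Normal of 2.07 (SE 0.08) for M and 1.47 (SE 0.08) for ET and was higher in M than in ET by 0.59 (SE 0.07, adjusted p = 0.000431).

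The members just inside the minimum were Rab3a with 5 libraries at or above 1 FPKM, Rab15 with 6 and Rab4a with 8. Just outside it was Rab13, known from epithelial junctions, with 0.877, 0.974 and 0.964 FPKM in the M libraries, 0.918, 1.17 and 1.06 FPKM in the ET libraries and 0.6896, 0.6404 and 0.532 FPKM in the Normal libraries. The other 16 names under the minimum had at most 0.534 FPKM in any library, the value of Rab39 in M replicate 3. Rab38, a relative of Rab32 known from pigment cells, was listed at 0 in 8 of 9 libraries and at 0.0249 FPKM in Normal replicate 2. Rab2b, Rab6a and Rab10 also overlap genes on the opposite strand with at least 10% of their own counts, Tox4, Mrpl48 and Rab10os, and reads of such partners could not be told apart from theirs without the strand setting.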

How the data were processed

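The data are 9 mRNA sequencing libraries, 3 in each of the M, ET and Normal groups, assigned by the column named in each label. The submitters' processing notes name cutadapt 1.9, HISAT2 2.2.1, StringTie 2.1.6, edgeR and DESeq2. The deposited table holds whole-number counts per gene, whose counting tool and strand setting are not stated, and FPKM values made by the authors per the file headers. No build is named in the labels or headers used here. Coordinates of 35 of 40 members and 89.9% of all genes equal GENCODE M21 on GRCm38, and positions printed are those of the table.

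Counts of the 11536 genes at or above 1 FPKM in 3 libraries were fitted in 1 edgeR 4.0.16 quasi-likelihood model of 3 groups with TMM factors (R 4.3.3), and Benjamini-Hochberg adjustment ran over all of them at 0.05. The SE is the absolute log2 fold change over the square root of the F statistic. Levels are deposited FPKM, which are not TMM-scaled, so a ratio of FPKM can differ slightly from a fitted fold change. Alternatives were relative log expression factors, total counts, other filters, DESeq2 1.42.0, limma 3.58.1 on log2(FPKM + 1) and log2(FPKM + 0.1), a replicate block, fits of the 6 libraries compared, stricter thresholds and leaving out each library. The fit was tested on simulated data. Correlations of deviations between same-numbered libraries of different groups lay between -0.05 and 0.08, and between differently numbered ones from -0.09 to 0.08. Such values cannot show whether same-numbered libraries shared a culture or a day. The labels do not say what a number shares, and the main fit used no pairing.

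Each member was placed at 1 trafficking step from general knowledge, though many act at several. Members, steps and lists were chosen with earlier results of these data known. Values per library are given for members that changed by at least 0.58, for a panel of 25 and for the 5 with the highest mean FPKM. From each regulator list, up to 3 called genes with the smallest p in M over Normal and up to 2 in M over ET are named, where groups do not overlap. Some genes that this rule or the marker list holds are not reported here.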

Additional observations from a re-analysis of the deposited data

How the results depend on the processing

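For the members, 66 changes were called over the 3 comparisons, and the alternatives gave 1180 further values for them. Of these, 1152 kept direction and call, 28 kept direction but lost the call and 0 reversed. The losses touched 9 of 66 changes, those of Rab1a, Rab5c, Rab7 and Rab23 in M over Normal and of Rab4b, Rab7, Rab18, Rab23 and Rab24 in ET over Normal. Most came with total counts or with limma on FPKM, neither of which uses TMM factors, and under these Rab32 and Rab43 in M and Rab32 in ET were called lower instead. The cause was not tested. With a log2 change of at least 0.58 asked for, M over Normal had 4 higher and 4 lower members, ET over Normal 4 and 3, and M over ET 0 higher. Leaving out 1 library at a time gave 0 to 1 members lower in M than in ET, the 1 being Rab40c without ET replicate 3. Other calls lost without a library were those of Rab5c in M (Normal replicate 2), Rab23 in M (M replicate 2) and ET (ET replicate 2 or 3), and Rab4b in ET (Normal replicate 1). The fit with a replicate block gave 17 higher and 16 lower members for M over Normal, 16 and 16 for ET over Normal and 1 and 0 for M over ET, as without it. Over all genes, the 573 higher and 475 lower in M over ET were 895 and 787 with DESeq2 and 339 and 421 with limma on log2(FPKM + 0.1). Rab3a, Rab4a and Rab19 had the largest SE, 0.15 to 0.21 against 0.03 to 0.13 for the other members. What part depth has in this was not tested.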
